A study of Mus musculus with 6 samples.

Results

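The genes described here encode the proteins of the cytosolic ribosome. They were chosen by name alone: a gene row counted as a member when its symbol was Rpl or Rps with a number and at most an a, x, y or l suffix, or was Rpsa, Rplp0, Rplp1 or Rplp2. This gave 82 members of 36210 gene rows, 32 with small subunit names and 50 with large subunit names. The RNA came from brains of APP/PS1 mice, a line that carries mutant human amyloid precursor protein and presenilin transgenes, at 8 months of age, from cells that the labels call adult astrocytes. Both groups were APP/PS1 animals injected into the peritoneum daily for 30 days, the vehicle group (3 libraries) with 0.9% saline and the other (3 libraries) with AVE0991 at 10 mg per kg. AVE0991 is a synthetic agonist of Mas, the receptor for angiotensin-(1-7). The labels give neither the promoter of the transgenes nor the way the cells were isolated, and they do not tie libraries to animals, so p-values reflect the spread among these libraries only.

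Each cytosolic ribosome carries a single copy of nearly every one of these proteins, and the genes are transcribed at high and broadly matched rates in every tissue. Their mRNAs mostly begin with a terminal oligopyrimidine (TOP) tract, a run of C and T that places their translation under mTORC1, the growth-sensing kinase complex. In the brain, neurons and glia move ribosomal protein mRNAs into their processes, and loss of ribosomal protein supply is sensed through Rpl5 and Rpl11, which bind the p53 regulator Mdm2.

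Totals on gene rows ran from 44583296 to 50066692 counts per library. All 12 astrocyte markers were detected, with a summed level between 6118 and 8781 CPM (counts scaled to library size) per library, but the 12 neuronal and 10 oligodendrocyte markers were also all detected, with summed levels of 5383 to 6493 CPM and 3850 to 12172 CPM. AVE0991 replicates 2 and 3 stood apart from the rest in their markers of cerebellar granule cells, whose sum over 10 genes was 2258 and 2242 CPM against 248 to 301 CPM in the other 4 libraries. In bulk RNA of this kind, fewer cells of a type and less RNA per cell cannot be told apart.

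The first question was whether AVE0991 changed the level of ribosomal protein mRNA. Of the 82 members, 79 had enough counts to be tested, and 0 passed at an adjusted p under 0.05 in edgeR's quasi-likelihood test, against 0.864% of the 20363 genes tested (0.0344% higher and 0.83% lower). At an unadjusted p under 0.05 there were 3 members, Rps24, Rpl26 and Rps4l, which is 3.80% of those tested against 23.6% of all genes. The median log2 fold change, AVE0991 over vehicle, was -0.10 over the members and -0.01 over all genes tested. It was negative in 55 members and positive in 24, and ran from -0.67 (Rpl32l) to 0.52 (Rps4l). Rpl32l had only 26, 20 and 19 counts in vehicle and 14, 8 and 17 in AVE0991, and the next lowest was Rps24 at -0.62. Members whose AVE0991 and vehicle libraries did not overlap numbered 9, which is 11.4% of those tested against 30.6% of all genes. The AVE0991 libraries were the higher in 3 of them, Rpl28, Rplp0 and Rps4l (14.3% of all genes), and the lower in 6, Rps24, Rpl26, Rpl7, Rpl5, Rpl23 and Rpl23a (16.3% of all genes).

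The AVE0991 libraries differed from each other in these genes by more than the vehicle libraries did. Counts of members made up 1.18%, 1.26% and 1.15% of gene-row counts in vehicle replicates 1 to 3 and 1.33%, 0.835% and 1.04% in AVE0991 replicates 1 to 3. AVE0991 replicate 1 thus held the highest share of the 6 libraries and replicate 2 the lowest, 1.59-fold apart, while the vehicle libraries lay close together between them. Because the AVE0991 libraries fell on both sides of the vehicle group, the means differed little for their spread, at 1.20% ± 0.0568 (SD, n = 3) in vehicle and 1.07% ± 0.248 (SD, n = 3) in AVE0991.

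The same order held gene by gene. Each member's log2 CPM was set against its own vehicle mean. The median over the 79 tested members was -0.00, 0.07 and -0.07 in the vehicle libraries and 0.19, -0.44 and -0.12 in AVE0991 replicates 1, 2 and 3, while the median over all genes lay within 0.01 of 0 in every library. AVE0991 replicate 2 was below every vehicle library in 72 members (91.1%, against 38.3% of all genes), and replicate 3 in 46 members (58.2%, against 35.1%). AVE0991 replicate 1 was above every vehicle library in 52 members (65.8%, against 30.6% of all genes). The order replicate 1 over replicate 3 over replicate 2 was found in 68 of 79 members (86.1%), compared with 19.8% of all genes, and in 43 members (54.4%, against 5.51%) replicate 1 was the highest and replicate 2 the lowest of all 6 libraries.

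**Figure D1:**
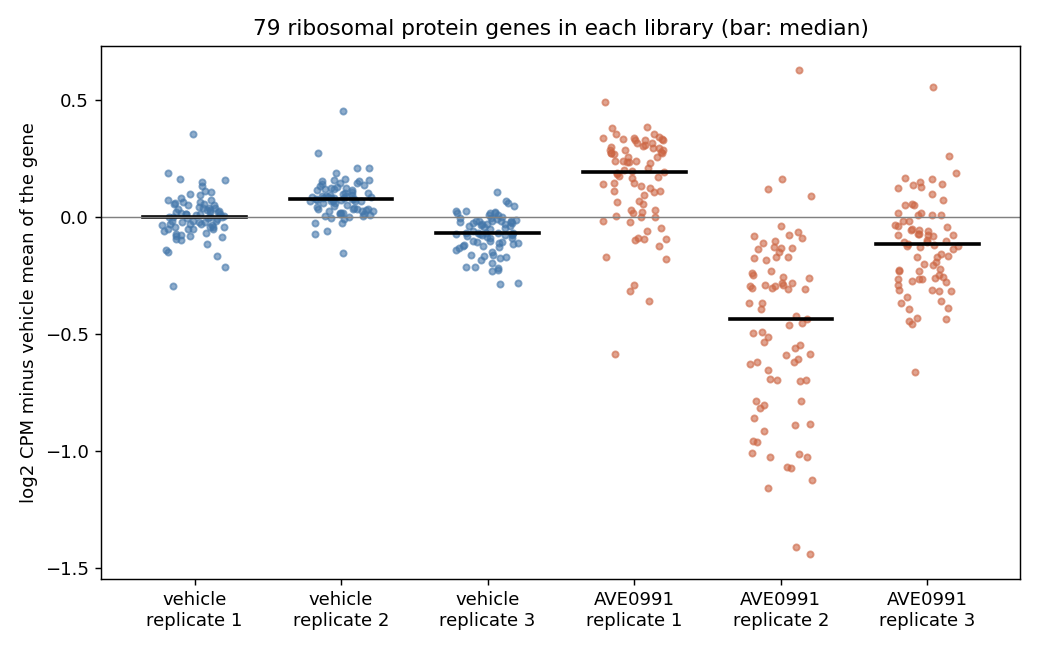
Log2 CPM of each tested ribosomal protein gene minus its own vehicle mean, by library, with 1 point per gene. The vehicle libraries centre near 0, whereas AVE0991 replicate 1 lies above it (median 0.19), replicate 2 well below it (median -0.44) and replicate 3 slightly below it (median -0.12).

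In fold terms, the median member was 1.14-fold above its vehicle mean in AVE0991 replicate 1 and 1.36-fold below it in replicate 2. The ratio of replicate 1 to replicate 2 had a median of 1.55 and exceeded 1 in 77 of 79 members, the exceptions being Rpl7 and Rps4l. The coefficient of variation (SD over mean of CPM) had a median of 6.09% among vehicle and 22.3% among AVE0991 libraries, and was larger in the AVE0991 group for 76 of 79 members. Over the 10211 genes with a mean of at least 10 CPM the medians were 7.57% and 12.6%, and the AVE0991 value was the larger in 73.6%. These counts come from genes that share their libraries, so they describe 3 libraries a group and are no measure of an effect of AVE0991.

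The direction of the group median differed with the AVE0991 library left out. Without replicate 2 the median log2 fold change of members was 0.04, with 47 of 80 tested members positive, whereas without replicate 1 it was -0.28, with 71 of 79 negative. In the fit without replicate 1, edgeR called 2 members lower, Rps24 at -0.76 and Rpl17 at -0.61, and 0 higher, where 4.76% of all genes tested were called lower and 6.63% higher. Replicate 1 alone against vehicle, an alternative chosen after the data were examined, gave a member median of 0.20, with 65 of 80 positive. That value rests on 1 library and is given as a size only.

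Markers of other cell types were read beside this order. Microglial markers ranked the libraries in a like way: replicate 1 over replicate 3 over replicate 2 in 9 of 10 genes, with median differences from the vehicle mean of 0.26, -0.28 and 0.08 in AVE0991 replicates 1, 2 and 3. Their summed level was 524, 467 and 490 CPM in vehicle and 605, 423 and 515 CPM in AVE0991 libraries, and 0 of the 10 were at 0. Summed astrocyte markers stood in another order, at 7454, 6118 and 6720 CPM in vehicle and 6928, 8592 and 8781 CPM in AVE0991. Slc1a2, at 3566 and 2863 CPM on average, weighed most in that sum and was the only 1 of the 12 lower in AVE0991. By gene their medians were 0.24, 0.79 and 0.70 in AVE0991 replicates 1, 2 and 3. In replicates 2 and 3, 11 of 12 (91.7%) were above every vehicle library, against 37.1% and 34.7% of all genes. The granule cell sum was nearly equal in replicates 2 and 3, which differed in the members. The summed oligodendrocyte markers were highest in AVE0991 replicate 2, at 12172 CPM against 3850 to 8307 CPM in the other 5 libraries. Mbp alone made up 7887 CPM of that sum. By gene, 5 of the 10 were above every vehicle library in replicate 2 and 0 were below. Their median differences from the vehicle mean were -0.26, 0.55 and -0.36 in AVE0991 replicates 1, 2 and 3. The part of cell makeup in the ribosomal protein levels was not tested.

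Among small subunit genes AVE0991 replicate 2 was low to differing extents. The 32 tested members of that subunit had a median log2 fold change of -0.05, with 9 positive, and library medians of 0.23, -0.42 and -0.09 in AVE0991 replicates 1, 2 and 3. Rps24, whose product is needed to process the precursor of the small subunit RNA, was at 132, 133 and 106 CPM in vehicle and 95.7, 67.7 and 77.4 CPM in AVE0991. All 3 AVE0991 libraries lay below all 3 vehicle libraries, and the log2 fold change was -0.62 ± 0.16 (SE; adjusted p = 0.107, edgeR). DESeq2 called this gene lower at -0.61 (adjusted p = 0.0245), where it called 7.11% of all genes lower. It called 0 members higher, against 5.39% of all genes.

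Rps7, which also serves in small subunit assembly, was at 212, 224 and 195 CPM in vehicle and 207, 96.3 and 199 CPM in AVE0991. Here replicate 2 alone was low, 2.18-fold below the vehicle mean, and the other AVE0991 libraries lay within the vehicle range (log2 fold change -0.33 ± 0.28, SE). Rps27a encodes a fusion of ubiquitin with a ribosomal protein and was at 162, 177 and 151 CPM in vehicle and 153, 88.2 and 134 CPM in AVE0991, again lowest in replicate 2 (-0.39 ± 0.20, SE; adjusted p = 0.290, edgeR). Rpsa, the small subunit protein also known as the laminin receptor, was at 416, 448 and 452 CPM in vehicle and 551, 369 and 423 CPM in AVE0991. Its replicate 1 was the highest and its replicate 2 the lowest of all 6 libraries, and the group difference was 0.03 ± 0.16 on the log2 scale. Rps6, the protein phosphorylated by S6 kinase downstream of mTORC1, was listed at only 8.42, 10.6 and 9.04 CPM in vehicle and 10.7, 10.4 and 8.33 CPM in AVE0991, with overlapping groups.

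Among large subunit genes, the 47 tested members had a median log2 fold change of -0.13, with 15 positive, and library medians of 0.14, -0.46 and -0.13. Rpl26, a protein near the exit of the nascent chain tunnel, was at 99.3, 107 and 82.4 CPM in vehicle and 76.7, 45.5 and 70.2 CPM in AVE0991. The groups did not overlap and the log2 fold change was -0.58 ± 0.21 (SE; adjusted p = 0.164, edgeR). Rpl5 and Rpl11 together carry the 5S ribosomal RNA into the large subunit. Rpl5 was at 161, 161 and 149 CPM in vehicle and 147, 103 and 126 CPM in AVE0991, all lower than vehicle (-0.32 ± 0.14, SE; adjusted p = 0.225, edgeR). Rpl11 was at 110, 113 and 97.4 CPM in vehicle and 108, 66.0 and 93.3 CPM in AVE0991, so only replicates 2 and 3 were below every vehicle library (-0.26 ± 0.18, SE).

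Of the other large subunit members with the smallest p in the lower direction, Rpl7, Rpl21 and Rpl23 had log2 fold changes between -0.35 and -0.25 and adjusted p between 0.213 and 0.239 in edgeR. Rpl7 was at 132, 148 and 122 CPM in vehicle and 109, 119 and 111 CPM in AVE0991, and was unusual in being lowest in replicate 1. Rpl23 was at 48.3, 52.5 and 48.8 CPM in vehicle and 47.7, 40.5 and 36.9 CPM in AVE0991, with replicate 3 the lowest. Rpl21 overlapped between groups, at 96.4, 94.6 and 80.5 CPM against 84.4, 58.3 and 70.4 CPM.

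Replicate 2 lay farthest below vehicle for the small, basic large subunit proteins Rpl39 and Rpl36a. Rpl39 was at 43.2, 46.6 and 37.2 CPM in vehicle and 40.7, 15.5 and 32.05 CPM in AVE0991, which put replicate 2 at 2.72-fold below the vehicle mean. Rpl36a was at 43.98, 41.3 and 31.6 CPM in vehicle and 35.4, 14.5 and 28.5 CPM in AVE0991, with replicate 2 2.66-fold below. The vehicle and AVE0991 ranges of both genes overlapped through AVE0991 replicate 1, and their adjusted p in edgeR was 0.371 and 0.317. In all, 10 members were at least 2-fold below their vehicle mean in replicate 2: Rpl39, Rpl36a, Rpl32l, Rps7, Rpl26, Rpl30, Rpl31, Rpl34, Rps27l and Rps27. Rpl32l had only 8 counts in that library.

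A smaller set leaned the other way. Rplp0, Rplp1 and Rplp2 form the acidic stalk that recruits the translation factors with GTPase activity. Rplp0 was at 223, 247 and 238 CPM in vehicle and 296, 251 and 261 CPM in AVE0991, every AVE0991 library above every vehicle library (0.19 ± 0.11, SE; adjusted p = 0.323, edgeR). Rplp1 was at 321, 310 and 287 CPM against 360, 203 and 289 CPM, and Rplp2 at 114, 112 and 110 CPM against 138, 105 and 114 CPM. The partners of Rplp0 in the stalk thus followed the common order of libraries and overlapped between groups, with log2 fold changes of -0.11 ± 0.20 and 0.08 ± 0.12 (SE).

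Rpl28 was at 141, 152 and 141 CPM in vehicle and 188, 157 and 162 CPM in AVE0991, also without overlap (0.22 ± 0.11, SE; adjusted p = 0.257, edgeR). Rpl18 and Rpl8, also among the smallest p in the higher direction, had log2 fold changes of 0.15 and 0.10 with adjusted p of 0.517 and 0.645 in edgeR, and overlapped between groups. With a correction for GC content Rpl8 was at -0.10, so its direction depends on that choice. Rplp0, Rpl28, Rpl18 and Rps4l stayed positive with that correction but were smaller, at 0.04, 0.08, 0.008 and 0.31. It left 11 of the 79 tested members positive and 68 negative. Replicate 2 was above the vehicle mean in only 4 of 79 members, namely Rps4l, Rps6, Rpl28 and Rplp0.

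**Figure D2:**
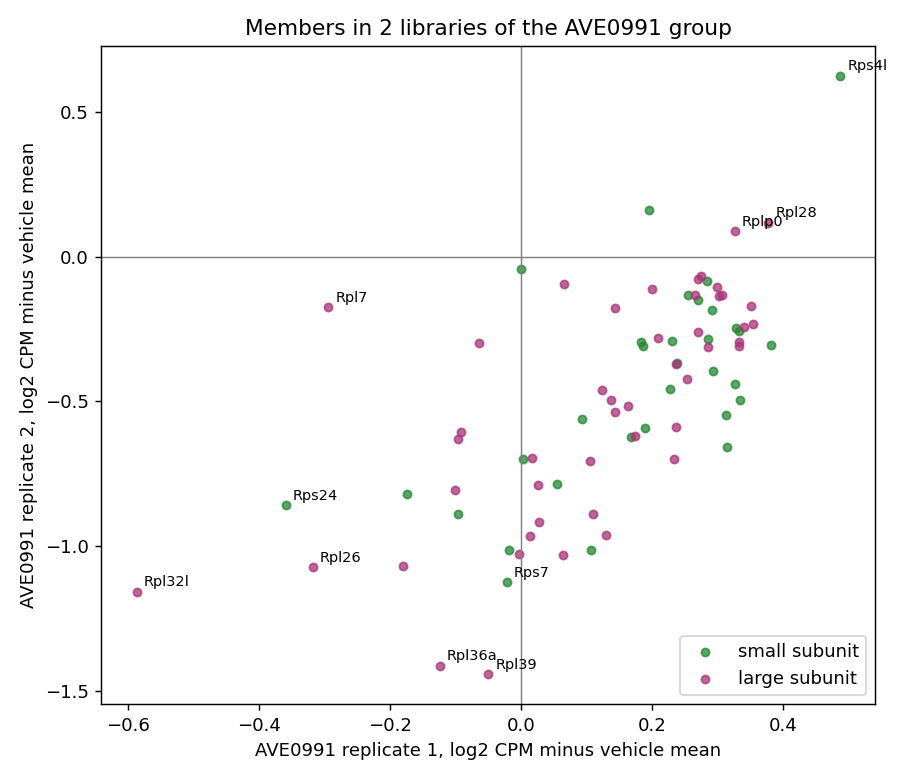
Log2 CPM minus the vehicle mean in AVE0991 replicate 1 (horizontal) and AVE0991 replicate 2 (vertical), 1 point per tested member, coloured by subunit. Most points lie to the right of 0 and below 0, and 75 of 79 are negative in replicate 2. Rps4l, Rpl28 and Rplp0 are positive on both axes, whereas Rpl39 and Rpl36a reach -1.44 and -1.41 in replicate 2.

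Several members are paralogues of a main gene, and their place in the set differs. Rps4l, an autosomal relative of the X-linked Rps4x, was at 8.77, 13.95 and 8.67 CPM in vehicle and 14.3, 15.8 and 15 CPM in AVE0991. All AVE0991 libraries were above all vehicle libraries, and it had the largest positive difference of any tested member, 0.52 ± 0.20 on the log2 scale (SE; adjusted p = 0.186, edgeR). Rps4x itself was at 189, 218 and 182 CPM in vehicle and 233, 178 and 163 CPM in AVE0991 (-0.03 ± 0.16, SE). Per length, in FPKM (fragments scaled to transcript length and library size), Rps4l amounted to 4.82%, 6.56% and 4.88% of Rps4x in vehicle and 6.34%, 9.12% and 9.46% in AVE0991, with overlap between the groups.

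The other l-suffixed genes stood far below their main genes. Rps27l was at 3.78% of the FPKM of Rps27 over all libraries, and Rpl32l at 0.335% of Rpl32. Rpl3l, known as a muscle form of Rpl3, had 57 counts in the 6 libraries together, and Rpl39l, known from testis, had 5. Rpl10l, the testis copy that stands in for X-linked Rpl10, had 0 counts in every library, where a count of 0 allows up to 0.0587 to 0.0681 CPM per library (3 counts, counting error only). These last 3 genes are the members that were not tested.

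Pairs that share only a number and not a common protein also showed contrasts. In AVE0991 replicate 2, the log2 difference from vehicle was -0.17 for Rpl7 and -0.08 for Rpl7a, -0.30 for Rpl23 and -0.81 for Rpl23a, and -0.31 for Rpl27 and -0.54 for Rpl27a. It was -0.96 for Rpl35 and -0.92 for Rpl35a, -0.17 for Rpl36 and -1.41 for Rpl36a, and -0.51 for Rpl37 and -0.23 for Rpl37a. For Rps15 and Rps15a it was -0.44 and -0.04, for Rpl13 and Rpl13a -0.37 and -0.70, for Rpl10 and Rpl10a -0.24 and -0.26, and for Rps27 and Rps27a -1.01 and -0.89. Of these 10 pairs, Rpl36 and Rpl36a lay farthest apart in that library and Rpl10 and Rpl10a closest together.

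Levels per length were high, as is usual for this class. The median member had a mean FPKM of 186 over the 6 libraries against 4.20 for all genes tested, and 65 of 82 members were among the 500 genes with the highest FPKM. Rplp1 led with 761 ± 36.6 FPKM in vehicle and 674 ± 199 in AVE0991 (SD, n = 3), followed by Rps15 with 605 ± 10.1 and 570 ± 161. Rpl41, which encodes a very short basic peptide, had 614 ± 10.2 FPKM in vehicle and 492 ± 182 in AVE0991. Rps14 (511 ± 20.1 and 506 ± 102), Rpl13a (503 ± 33.0 and 436 ± 143) and Rpl3 (423 ± 12.9 and 375 ± 103) came next. The order is a loose one, since 74 of the 81 pairs of neighbours in it differed by less than their joint SD, and 61 members lay between 100 and 400 FPKM.

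At the other end, 8 members had a mean under 20 FPKM. Rps15a was listed at 17.9 ± 1.66 FPKM in vehicle and 16.2 ± 1.12 in AVE0991, Rps4l at 12.2 ± 3.72 and 16.5 ± 0.531, Rps27l at 9.08 ± 2.01 and 7.28 ± 2.74, and Rps6 at 7.19 ± 0.980 and 7.13 ± 1.07 (SD, n = 3). Below them stood Rpl32l at 0.853 ± 0.188 and 0.507 ± 0.190 FPKM, Rpl3l at 0.130 ± 0.0520 and 0.167 ± 0.0907, Rpl39l, which was listed at 0 in 4 of 6 libraries, and Rpl10l at 0. The ribosome holds Rps6 and Rps15a in the same amount as its other proteins. The length implied by counts and FPKM was 5088 bases for Rps15a, much longer than its coding part. Rps15a was at 82.3, 96.0 and 87.0 CPM in vehicle and 88.2, 85.7 and 80.7 CPM in AVE0991. Its FPKM is thus low through the length it is divided by, not through few counts. Rps6 was low in counts as well, at 8.33 to 10.7 CPM, with an implied length of 1338 bases. Ribosomal protein genes have many near-identical processed copies in the mouse genome, and the labels do not say how reads shared with such copies were assigned, so the level of any single member is uncertain.

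**Figure D3:**
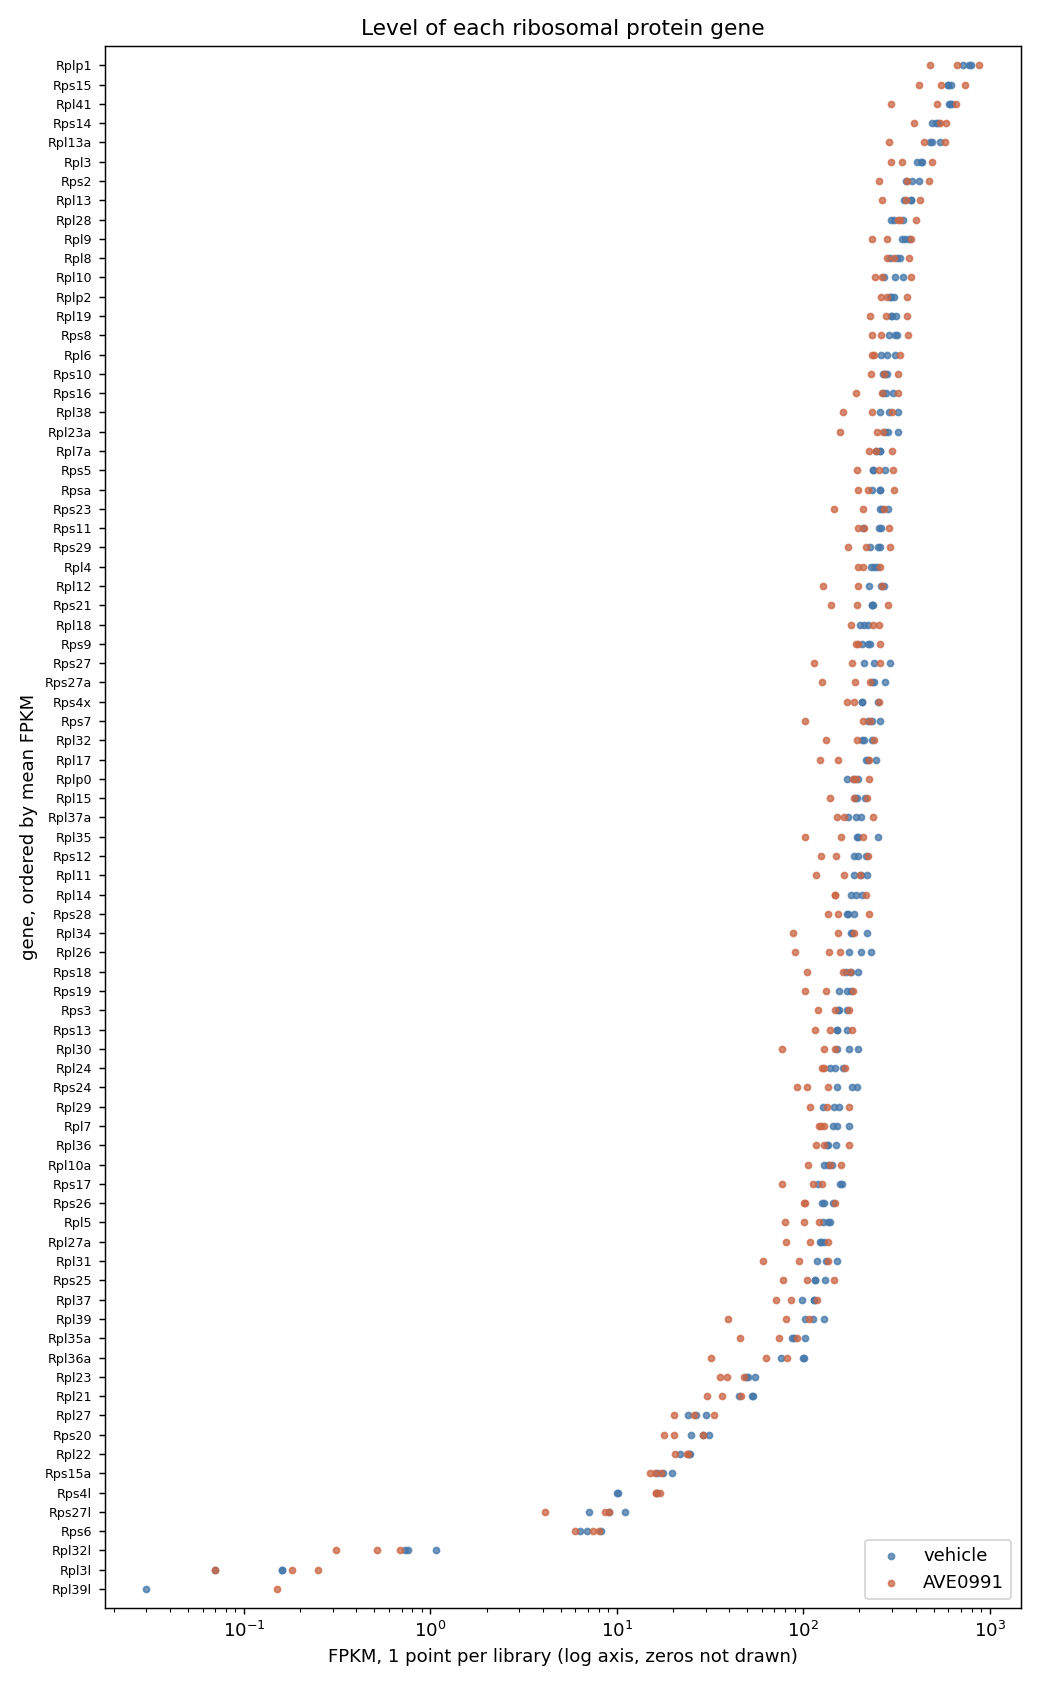
Deposited FPKM of members with a value above 0 (1 member not shown) in each library on a log axis, ordered by the mean over all 6 libraries, vehicle in blue and AVE0991 in red. Most members lie between 100 and 400 FPKM, the lowest point of most rows is an AVE0991 library, and Rps6 and the l-suffixed genes form the low tail.

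On the per-length scale the library order was kept in part. The FPKM of all members summed to 16752, 18264 and 16585 in vehicle and 19078, 11728 and 14939 in AVE0991. As a percentage of the summed FPKM of all gene rows this was 2.84, 3.09 and 2.83 in vehicle and 2.99, 1.79 and 2.07 in AVE0991. On that scale AVE0991 replicates 2 and 3 were below every vehicle library, but replicate 1 lay within the vehicle range.

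The genes' GC content and length were measured because AVE0991 libraries differed from vehicle along GC content over all genes. Among other genes with at least 10 CPM, those with a transcript GC content up to 45% had medians of -0.31, -0.26 and -0.24 in AVE0991 replicates 1, 2 and 3, and those above 55% had medians of 0.16, 0.24 and 0.21. The 3 AVE0991 libraries thus shared 1 trend in GC content. Members followed it within each library, with medians of -0.09, -0.61 and -0.28 in the 9 members up to 45% GC and 0.27, -0.31 and -0.04 in the 17 members above 55%. At equal GC content, members were above the other genes in replicate 1 and below them in replicates 2 and 3 in each of the 4 classes.

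**Figure D4:**
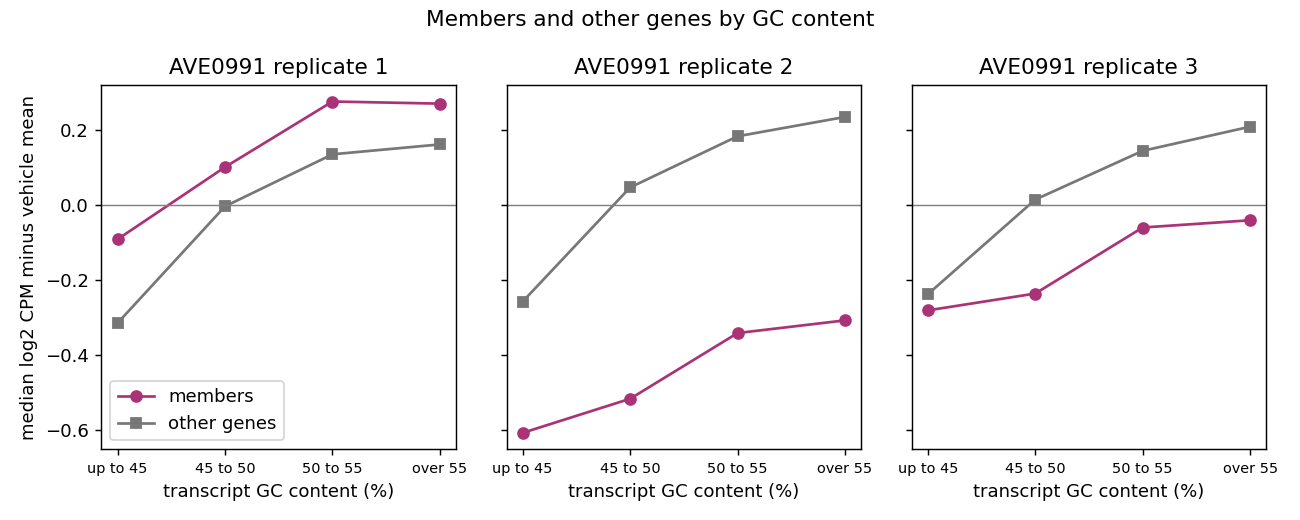
Median log2 CPM minus the vehicle mean by class of transcript GC content, for members and for other genes with a mean of at least 10 CPM, in each AVE0991 library. Both lines climb with GC content in each panel, except that the member line of replicate 1 is level between the highest classes (0.28 and 0.27). The member line lies above the other genes in replicate 1 and below them in replicates 2 and 3.

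Short transcripts showed the same arrangement. In members up to 800 bases (17 genes) the medians were 0.24, -0.59 and -0.13 in AVE0991 replicates 1, 2 and 3, against 0.10, -0.13 and 0.03 in 115 other genes of that length. With GC content between 50% and 55% and length up to 1200 bases together, they were 0.23, -0.46 and -0.07 in 17 members and 0.12, -0.08 and 0.02 in 124 others. Across the 76 members with at least 10 CPM, GC content and the difference from vehicle had a Spearman correlation of 0.49, 0.22 and 0.46 in the 3 libraries, a description over genes that share libraries and the vehicle reference.

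The starts of the genes were inspected because members moved together and because the TOP tract lies there. RefSeq promoter windows of GRCm38.p6, from 250 bases before to 50 after each start, were matched to 61 members and gave 73 windows. A run of at least 8 C or T on the sense strand, between 10 bases before and 15 after the start, was present in 31.5% of member windows and 9.49% of all 32851. Sequences from 25 bases before to 20 after the start are shown for members with long runs and, after them, for Rpl26 and Rpl39, which were low in AVE0991 replicate 2, and for Rpl10l, which had no counts. Each is written 5′ to 3′ on the sense strand, and capitals mark the longest run of C and T in the searched stretch.
Rpl27a: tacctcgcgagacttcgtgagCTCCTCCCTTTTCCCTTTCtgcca
Rpl35: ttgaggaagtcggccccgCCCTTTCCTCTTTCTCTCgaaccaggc
Rpl15: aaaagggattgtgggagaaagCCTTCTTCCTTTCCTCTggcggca
Rpl7a: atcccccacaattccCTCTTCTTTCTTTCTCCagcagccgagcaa
Rpl13a: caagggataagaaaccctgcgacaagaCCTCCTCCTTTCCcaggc
Rpl26: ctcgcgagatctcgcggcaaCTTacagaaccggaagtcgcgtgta
Rpl39: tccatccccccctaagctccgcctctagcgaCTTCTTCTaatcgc
Rpl10l: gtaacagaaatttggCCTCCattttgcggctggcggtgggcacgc

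These lie on GRCm38.p6 at chr7:109519170-109519214 (plus strand) for Rpl27a, chr2:39005112-39005156 (minus) for Rpl35, chr14:18270967-18271011 (minus) for Rpl15 and chr2:26910782-26910826 (plus) for Rpl7a. Rpl13a is at chr7:45128726-45128770 (minus), Rpl26 at chr11:68901541-68901585 (plus), Rpl39 at chrX:37085203-37085247 (minus) and Rpl10l at chr12:66284382-66284426 (minus). Within the searched stretch the runs are 19, 18, 17, 17 and 13 bases long in the first 5, 3 in Rpl26, 8 in Rpl39 and 5 in Rpl10l. Those of Rpl7a and Rpl13a go on past its edge, so their whole runs are longer. The 23 tested members with a run of at least 8 and the 35 without had the same median in AVE0991 replicate 2, -0.46, and medians of 0.14 and 0.19 in replicate 1.

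Further letters searched on both strands of the whole window were CCGGAAG, the core bound by ETS factors, in 35.6% of member windows and 8.86% of all, and CTCTTTC, in 27.4% and 8.16%. The latter is itself made of C and T and can lie inside a run counted above. TATAAA, the TATA box, was in 9.59% of member windows and 13.6% of all. Each match is a description of letters in a window, not of a bound site.

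Ribosomal proteins that the name rule leaves out were read for comparison. Of these 8 genes edgeR called 0, against 0.864% of all genes. At an unadjusted p under 0.05 there were 2 (25%), against 23.6% of all genes. The median log2 fold change of the 8 was -0.02. Fau, which encodes a small subunit protein fused to a ubiquitin-like protein, was at 188, 180 and 171 CPM in vehicle and 213, 153 and 181 CPM in AVE0991, in the order of the members. Rps3a1 was at 207, 217 and 206 CPM against 189, 155 and 168 CPM, below vehicle in every AVE0991 library (-0.30 ± 0.11, SE; adjusted p = 0.161, edgeR). Rpl22l1, a paralogue of Rpl22, was at 14.3, 15.2 and 14.2 CPM against 8.61, 5.46 and 8.76 CPM, also without overlap, with the largest difference of the 8 (-0.93 ± 0.19, SE; adjusted p = 0.0774, edgeR). Rpl22 itself was at 51.6, 51.2 and 45.8 CPM against 51.8, 46.4 and 54.1 CPM.

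Mitochondrial ribosomal proteins, made in the cytosol for a separate ribosome, served as the most similar other set. Of 78 genes edgeR called 0, against 0.864% of all genes. At an unadjusted p under 0.05 there were 9 (11.5%), against 23.6% of all genes. The median log2 fold change of the 78 was 0.03. Their library medians were 0.08, -0.05 and 0.00 in AVE0991 replicates 1, 2 and 3, so that replicate 2 was far closer to vehicle than for the cytosolic set. The order replicate 1 over 3 over 2 was found in 28.2% of them, compared with 86.1% of cytosolic members. Their smallest p values belonged to Mrpl1 (-0.51 ± 0.14), Mrpl50 (-0.32 ± 0.09) and Mrpl47 (-0.46 ± 0.15) in the lower direction and to Mrpl37, Mrpl28 and Mrpl4 (0.25, 0.24 and 0.25) in the higher (SE, n = 3 per group).

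Genes that build the ribosome were described from a list of 48, covering RNA polymerase I and its factors, small nucleolar particle proteins and assembly factors. One gene was called, Taf1d, a subunit of the selectivity factor of RNA polymerase I, which fell from 9.69 ± 0.542 to 5.29 ± 0.411 CPM (SD, n = 3; log2 fold change -0.87, adjusted p = 0.0462, edgeR). Over all genes 0.83% were called lower. The call was lost when any library but AVE0991 replicate 1 was left out (adjusted p = 0.109 to 0.227, edgeR). In edgeR it was also lost with GC correction (log2 fold change -0.43, adjusted p = 0.242). Length correction (adjusted p = 0.0532) and a block for replicate number (adjusted p = 0.133) in edgeR lost it too. So did limma on log2 FPKM (adjusted p = 0.0969 and 0.130), whereas DESeq2 and limma-voom kept it. The other genes of the list had adjusted p of at least 0.104 in edgeR. Among them were Nop58 (-0.46 ± 0.12) and Nmd3, the export adaptor of the large subunit (-0.69 ± 0.18), on the lower side. Polr1b (0.54 ± 0.16) was on the higher. The list's library medians were 0.09, 0.05 and 0.01 in AVE0991 replicates 1, 2 and 3.

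Of 35 translation factors, edgeR called 1, where 0.83% of all genes were called lower. This was Eif3e, a subunit of the factor that brings the small subunit to mRNA. It fell from 48.8 ± 4.97 to 27.6 ± 2.47 CPM (SD, n = 3; log2 fold change -0.82, adjusted p = 0.0430, edgeR). This call too was lost when any library but AVE0991 replicate 1 was left out (adjusted p = 0.0995 to 0.227, edgeR). In edgeR it was also lost with GC correction (log2 fold change -0.12, adjusted p = 0.675) and with the block (adjusted p = 0.127). Limma on log2 FPKM lost it as well (adjusted p = 0.0692 and 0.0984), whereas DESeq2 and limma-voom kept it. Eif4a2, a helicase that unwinds leaders, was at 350 ± 16.0 and 238 ± 9.13 CPM (adjusted p = 0.0528), and the release factor Etf1 at 55.9 ± 0.490 and 41.1 ± 0.632 CPM (adjusted p = 0.0593). On the other side Eef2, the translocation factor, was at 2049 ± 174 and 2578 ± 155 CPM. The library medians of 0.19, -0.05 and -0.06 placed AVE0991 replicate 1 as high as for the ribosomal proteins, and replicate 2 near vehicle.

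Non-ribosomal mRNAs known to carry a TOP tract gave 1 call among 21, the same Eif3e with the same losses, and library medians of 0.17, -0.08 and -0.07. Gas5, a TOP transcript that hosts small nucleolar RNAs, was at 29.7 ± 6.08 and 18.7 ± 3.93 CPM (-0.67 ± 0.20, SE; adjusted p = 0.132, edgeR). Vim, the intermediate filament of reactive astrocytes, was at 42.8 ± 8.46 and 130 ± 76.3 CPM (1.60 ± 0.48, SE). AVE0991 replicate 1, at 47.4 CPM, lay within the vehicle range of 33.96 to 50.8 CPM, and replicates 2 and 3, the libraries high in granule cell markers, were at 144 and 198 CPM. The order replicate 1 over 3 over 2 was found in 47.6% of these genes.

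In the mTORC1 list of 24 genes, edgeR called 0, and 12 (50%) had an unadjusted p under 0.05, against 23.6% of all genes. Its median log2 fold change was 0.17, and its library medians of 0.13, 0.23 and 0.17 were all above 0, unlike those of the ribosomal proteins. Tsc2, which restrains the mTORC1 activator Rheb, was at 154 ± 1.18 and 198 ± 11.9 CPM (0.36 ± 0.09, SE; adjusted p = 0.106, edgeR), and Rheb at 41.5 ± 2.25 and 34.5 ± 2.35 CPM (-0.27 ± 0.10). Eif4ebp2, the main brain form of the repressor of cap-dependent initiation, was at 94.6 ± 1.36 and 128 ± 13.7 CPM (0.44 ± 0.11; adjusted p = 0.0996, edgeR), and the S6 kinase gene Rps6kb1 at 23.9 ± 2.99 and 16.9 ± 1.35 CPM (-0.50 ± 0.13).

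**Figure D5:**
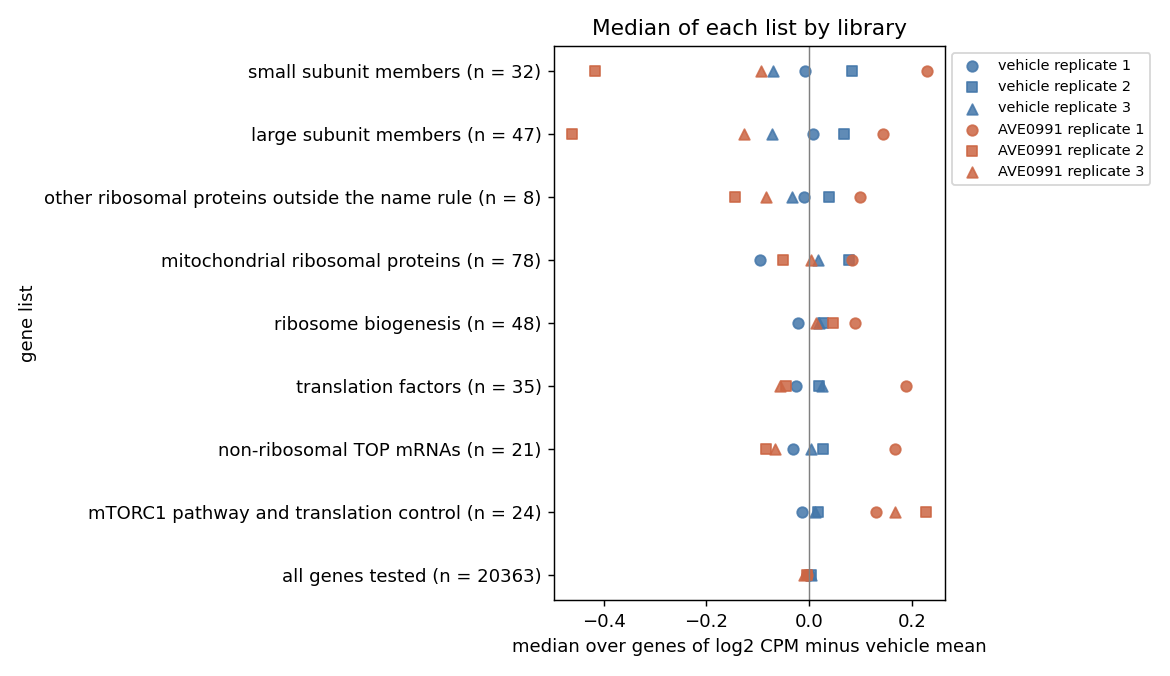
Median over each gene list drawn (cell type markers are not among them) of log2 CPM minus the vehicle mean, 1 symbol per library (blue vehicle, red AVE0991). Of the lists drawn, small and large subunit members spread farthest, with AVE0991 replicate 2 at -0.42 and -0.46, while mitochondrial ribosomal proteins, biogenesis genes and translation factors have replicate 2 between -0.05 and 0.05.

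The genes whose profile lay closest to the mean profile of the members were sought among 10047 other genes with at least 10 CPM, by the root mean square difference of centred log2 CPM over the 6 libraries. The closest was Cap1, an actin-binding protein, at a difference of 0.0211, with 194, 200 and 183 CPM in vehicle and 215, 142 and 177 CPM in AVE0991. Brk1, a subunit of the actin-regulating WAVE complex, followed at 0.0282, then Itpa, which clears inosine triphosphate, at 0.0357, Cd3eap, a subunit of RNA polymerase I, at 0.0488, and Chchd6, of the mitochondrial cristae complex, at 0.0492. The measure ranks likeness only and carries no test.

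In the authors' deposited table, 81 members had a log2 fold change, 49 of them negative, with a median of -0.07. None had a q-value under 0.05 there, and the smallest was 0.0531 for Rps24, at a log2 fold change of -0.60. The share of all genes under 0.05 in that table was not counted, so this result is not set against all genes.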

How the data were processed

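Ribosomal RNA was removed and libraries were made with dUTP in the second strand, per the labels' protocols. Reads were aligned with HISAT to mm9, per the submitters' processing notes. Neither the labels nor those notes name the counting program, its use of strand, the annotation or any version. The authors deposited estimated counts, of which 81.6% were whole numbers, and values read as FPKM from their relation to the counts. A separate deposited table holds a log2 fold change with a p-value and q-value per gene, from DESeq2 per the file headers. The table's 11824 circular RNA rows were left out, and 25 symbols turned into dates were restored by Entrez identifier.

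Estimated counts were rounded and fitted in R 4.3.3 with edgeR 4.0.16 (filterByExpr, TMM, robust quasi-likelihood F test, no covariates, Benjamini-Hochberg over 20363 genes, adjusted p under 0.05). The script was tested on simulated data. CPM uses TMM library sizes, and log2 CPM a prior count of 2. The common biological coefficient of variation was 24.7%, and the median prior degrees of freedom 2.93. DESeq2 1.42.0 and limma 3.58.1 served as alternatives, and log2 FPKM was taken with pseudocounts of 1 and 0.1. GC content and length are those of the longest GENCODE M21 transcript (GRCm38, not the mm9 of the files), available for all 82 members. Counts differed by more than sampling noise in every pair of libraries, so none was taken for a repeat deposit of another.

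Named members are the 6 with the smallest p in each direction, the 6 highest and 6 lowest by FPKM, paralogue pairs, the stalk proteins and Rpsa, and from other lists up to 3 genes per direction by p. Rpl5's partner Rpl11, Rps7, Rps27a, Rpl17, Rpl22, Fau, and Rpl39 and Rpl36a as those lowest in AVE0991 replicate 2, were named after their values were seen. Some genes this rule takes are not reported here. Members, lists and rules were chosen with earlier results of these data known.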

Additional observations from a re-analysis of the deposited data

How the results depend on the processing

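Over all genes, counts called higher and lower were 7 and 169 in edgeR, 1012 and 1335 with DESeq2, 525 and 770 with limma-voom, 58 and 379 without a filter, 18 and 328 when genes under 1 CPM on average were dropped, and 1 and 1 with GC correction. Length correction gave 13 higher, log2 FPKM plus 0.1 gave 0 and 1, and log2 FPKM plus 1 gave 0 and 0 (limma, 4823 genes at an unadjusted p under 0.05). AVE0991 replicate 1 alone against vehicle was fitted with the lone library assumed to vary as the vehicle libraries did. Only effect sizes are given for that fit. Leaving out each library in turn gave 0 to 1386 higher and 0 to 995 lower. The upper values came without AVE0991 replicate 1, and without any other library edgeR called 0 in both directions (3205 to 3818 at an unadjusted p under 0.05). The cause was not tested.

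Among members, 1 was called lower with DESeq2 (Rps24) and 0 to 2 when a library was left out, 2 without AVE0991 replicate 1. The member median ranged from -0.28 to 0.04 over left-out libraries, positive only without AVE0991 replicate 2, and from -0.19 to -0.08 over the other settings, apart from replicate 1 alone against vehicle (0.20). With GC correction Rpl8 was at -0.10, and with the replicate block and GC correction Rpl18 was at -0.0065 and Rpl8 at -0.12, reversed from edgeR without either. Of 209 values of named members under alternatives, 204 kept direction and side of the threshold. That count takes no account of size. With GC correction Rpl5, Rpl7, Rpl23 and Rps24 were less far below vehicle, at -0.06, -0.13, -0.20 and -0.39. Rpl21 and Rpl26 were farther below it, at -0.40 and -0.78. With TMM factors computed without members, the member median was -0.10 and 186 genes were called lower. The difference in summed member share ranged from -0.26 to -0.01 percentage points over left-out libraries, and was -0.12 over named rows, -0.11 without the 5 most abundant members and -0.14 with ribosomal proteins outside the name rule. That last change of the name rule was not run for the other results.

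Deviations of same-numbered libraries from their group means had correlations of 0.09, 0.21 and -0.52 across genes. Deviations within a group of 3 sum to 0, so these values cannot show whether the replicate numbers pair the groups. With the replicate block edgeR called 0 genes higher and 0 lower (3937 at an unadjusted p under 0.05), and likewise 0 and 0 with the block and GC correction together (2552), with member medians of -0.13 and -0.17. Vehicle replicate 1 correlated best with AVE0991 replicate 3 (0.52) and vehicle replicate 3 with AVE0991 replicate 2 (0.48), so not every library matched its own number best. Rpl3l, Rpl39l and Rpl10l had too few counts to be tested. The other 79 members were limited to 3 libraries a group, and a p over the threshold does not show that the groups had equal levels.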

Other observations

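Genes of the p53 response, which ribosomal protein imbalance can engage through Rpl5, Rpl11 and Mdm2, were read from a list of 16 symbols. A gene appears there under a second name, so the list holds 15 genes, and all were tested. edgeR called 0, and 7 (46.7%) had an unadjusted p under 0.05, against 23.6% of all genes. Cdkn1a, the cell cycle inhibitor that p53 induces, was at 10.5 ± 0.596 CPM in vehicle and 20.2 ± 4.77 in AVE0991 (SD, n = 3; log2 fold change 0.95 ± 0.18, adjusted p = 0.0673, edgeR). Trp53 was at 20.5 ± 1.37 and 26.0 ± 0.348 CPM (0.34 ± 0.09), and the apoptosis gene Bbc3 at 4.75 ± 0.425 and 7.66 ± 1.71 CPM (0.69 ± 0.19). Another p53 target, Ccng1, lay on the lower side, at 59.6 ± 4.23 and 34.95 ± 6.91 CPM (-0.77 ± 0.16, adjusted p = 0.0747, edgeR), as did Mdm4 at -0.25 ± 0.10. The members of the list thus stood on both sides, 8 positive and 7 negative.

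Factors that rescue or clear stalled ribosomes were listed under 19 symbols, which name 17 genes because some appear under a second name. All 17 were tested and gave 0 calls in edgeR, with 6 (35.3%) at an unadjusted p under 0.05, against 23.6% of all genes. Abce1, the ATPase that splits the subunits, was at 51.7 ± 2.63 CPM in vehicle and 33.6 ± 2.70 in AVE0991 (-0.62 ± 0.10, adjusted p = 0.0507, edgeR). Ascc3, a helicase that takes collided ribosomes apart, was at 34.4 ± 2.13 and 23.2 ± 4.84 CPM (-0.57 ± 0.16), and Ltn1, the ubiquitin ligase of stalled large subunits, at 71.6 ± 2.32 and 59.8 ± 4.91 CPM (-0.26 ± 0.10). On the higher side were Gtpbp1 (0.38 ± 0.11), Zfp598, the sensor of collisions (0.36 ± 0.14), and Gcn1l1 (0.23 ± 0.09). The list's median was 0.13, with 13 of 17 positive.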
